A study of Mus musculus with 68 samples.

Results

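Ephrins, Eph receptors, semaphorins and plexins form a pair of signalling systems through which growing axons and migrating neurons are attracted or repelled. Ephrin-A proteins are held in the membrane by a lipid anchor and ephrin-B proteins span it, and both bind Eph receptor tyrosine kinases on a touching cell, with signals running in both directions. Semaphorins are secreted or membrane-bound ligands whose main receptors are the plexins, with neuropilins as co-receptors for most secreted class 3 semaphorins. Both systems are known for wiring the developing cerebral cortex and for the migration of cerebellar granule cells, and many of their genes are still active in the adult brain.

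The members were all genes whose symbol on the array begins with Epha, Ephb, Efna, Efnb, Sema or Plxn followed by a digit. They numbered 51 of the 18193 genes with a probe set of their own: 8 ephrins, 13 Eph receptors, 20 semaphorins, 9 plexins and 1 antisense RNA, Plxna4os1, whose name starts like a plexin's. They were measured by 116 probe sets, with 17 genes having 1 and 34 having several, and each gene is given by the probe set that was brightest on average over all arrays. Levels are the deposited array signals, which the authors scaled to a common mean on each array. Signals of different probe sets were not compared with each other.

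RNA of mouse cerebellum and cerebrum was hybridised to 68 arrays, in 34 groups of 2 pools with 3 mice each. Wild-type (WT) mice of the FVB strain were taken at 0, 10 and 20 days and at 4, 12 and 18 weeks. Prosaposin knockout mice (PS-/-, FVB), which lack the precursor of the lysosomal saposins, were taken at the first 3 of these ages and at 25 days. PS-NA mice (FVB) carry the same knockout and a prosaposin transgene that restores only part of the normal level, and were taken at 0 days and at 4, 12 and 18 weeks. 4L/PS-NA mice carry in addition the homozygous V394L mutation of acid β-glucosidase, the enzyme that degrades glucosylceramide with the help of saposin C, and were taken at 4, 12 and 18 weeks. They were of a mixed strain background, only part of it FVB, and had no control of that background, so strain and the enzyme mutation cannot be told apart in any comparison with them. No WT brain was taken at 25 days, and the 25-day PS-/- pools were set against WT at 4 weeks. The p-values measure the spread between pools, not between single mice, and in whole tissue a change in the number of expressing cells and a change in RNA per cell cannot be told apart.

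The targeted gene, prosaposin (Psap), ranged from 20314 to 54680 in WT pools, from 386 to 1419 in PS-/-, from 3685 to 10884 in PS-NA and from 3049 to 11058 in 4L/PS-NA, and the WT and mutant ranges did not overlap. Gabra6, a receptor subunit of mature cerebellar granule cells, had a median signal of 40479 over the 34 cerebellar arrays of all genotypes and 126 over the 34 cerebral arrays, but the ranges overlapped. In WT it read only 116 and 82.8 in newborn cerebellum, and among WT cerebral pools the 20-day pool numbered 1 had the highest signals of Gabra6 (3642) and of the Purkinje cell marker Pcp2 (9560). One array stood apart: the 4-week 4L/PS-NA cerebellum pool numbered 2 correlated with the other pool of its group at 0.821, against 0.927 to 0.965 in the other 33 groups. In that group 60 probe sets were above 10000 in pool 1 and below 500 in pool 2, against 0 to 13 such probe sets in the other groups. For 4L/PS-NA cerebellum the counts of members that passed and the members named are therefore given with and without it. The cell type markers and the methods' thresholds are given with it only.

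Between birth and maturity some members moved the same way in both regions of WT brain, and for 6 of these the upstream genomic sequence is shown so that genes that rose can be set beside genes that fell. The 250 bases before the annotated start are printed 5′ to 3′ on the gene's strand (RefSeq, GRCm38.p6), with the GC box GGGCGG, or CCGCCC on the other strand, in capitals. Plxnb3 (chrX:73756853-73757102, plus strand), Sema6d (chr2:124089719-124089968, plus strand) and Sema7a (chr9:57939862-57940111, plus strand) rose in both regions, and Plxnc1 (chr10:94944846-94945095, minus strand), Sema3c (chr5:17574566-17574815, plus strand) and Sema4c (chr1:36558382-36558631, minus strand) fell in both.
Plxnb3: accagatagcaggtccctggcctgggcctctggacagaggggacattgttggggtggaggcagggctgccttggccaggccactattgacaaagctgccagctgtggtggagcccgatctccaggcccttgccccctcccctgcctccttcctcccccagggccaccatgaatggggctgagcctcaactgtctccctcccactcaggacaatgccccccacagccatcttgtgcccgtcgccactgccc
Sema6d: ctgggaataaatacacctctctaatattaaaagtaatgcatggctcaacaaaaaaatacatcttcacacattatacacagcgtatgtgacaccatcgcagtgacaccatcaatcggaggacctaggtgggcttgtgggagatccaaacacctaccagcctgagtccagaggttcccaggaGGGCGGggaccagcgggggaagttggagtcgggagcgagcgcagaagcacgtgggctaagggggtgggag
Sema7a: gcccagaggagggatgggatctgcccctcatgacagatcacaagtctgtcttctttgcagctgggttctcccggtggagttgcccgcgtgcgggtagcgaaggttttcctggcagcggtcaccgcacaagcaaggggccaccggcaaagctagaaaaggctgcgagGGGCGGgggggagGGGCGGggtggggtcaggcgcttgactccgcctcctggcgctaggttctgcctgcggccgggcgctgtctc
Plxnc1: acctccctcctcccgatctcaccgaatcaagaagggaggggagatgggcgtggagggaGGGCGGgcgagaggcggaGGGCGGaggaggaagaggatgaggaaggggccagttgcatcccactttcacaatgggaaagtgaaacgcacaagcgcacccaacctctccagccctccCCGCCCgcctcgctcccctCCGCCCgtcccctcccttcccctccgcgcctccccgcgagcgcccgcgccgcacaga
Sema3c: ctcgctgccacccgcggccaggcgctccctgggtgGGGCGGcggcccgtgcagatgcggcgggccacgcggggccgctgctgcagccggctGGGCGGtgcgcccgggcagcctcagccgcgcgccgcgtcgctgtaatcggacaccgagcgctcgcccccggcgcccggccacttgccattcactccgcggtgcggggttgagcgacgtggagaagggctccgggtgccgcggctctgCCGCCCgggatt
Sema4c: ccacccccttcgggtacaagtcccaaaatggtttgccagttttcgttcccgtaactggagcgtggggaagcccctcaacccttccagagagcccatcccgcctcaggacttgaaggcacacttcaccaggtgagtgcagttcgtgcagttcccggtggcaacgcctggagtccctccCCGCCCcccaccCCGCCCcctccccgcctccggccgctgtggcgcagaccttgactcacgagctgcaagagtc

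The window of Plxnb3 held 0 GC boxes, that of Sema6d 1, Sema7a 2, Sema4c 2, Sema3c 3 and Plxnc1 4. An upstream sequence was matched for 44 of the 51 members, and 34 of these (77.3%) held the motif, against 49.9% of the 14449 genes with both a probe set and a sequence. The upstream windows of the members were also richer in G and C, with a median of 64.4% against 57.6%, and a motif made of G and C is met more often in such windows. The motif was present in 2 of the 3 matched genes that rose in both regions and in 7 of the 8 matched genes that fell in both. The E-box CAGCTG, which reads the same on both strands, was found in 18.2% of members against 12.5%, the CCAAT box (CCAAT or ATTGG) in 31.8% against 35.8%, and TATAAA or TTTATA in 2.27% against 9.02%. These are descriptions of the sequence, not of binding sites.

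The first comparison asked how the members changed as the WT brain matured, with the 2 newborn pools of a region set against its 6 pools of 4, 12 and 18 weeks. In cerebellum 28 of the 51 members passed limma's test at an adjusted p of 0.05, 6 of them higher and 22 lower at maturity, while 31.4% of all genes passed, 14.6% higher and 16.8% lower. In cerebrum 25 passed, 9 higher and 16 lower, against 30.8% of all genes, 14.7% higher and 16.1% lower. The median log2 change of the members was -0.57 in cerebellum and -0.39 in cerebrum, against -0.05 and -0.04 over all genes. Among ephrins 5 of 8 fell and 0 rose in cerebellum, and 4 fell and 1 rose in cerebrum. Among Eph receptors 6 of 13 fell and 0 rose in cerebellum, and 3 fell and 3 rose in cerebrum. Semaphorins were split, with 5 rising and 6 falling of 20 in cerebellum and 4 and 5 in cerebrum, whereas 5 of 9 plexins fell and 1 rose in cerebellum and 4 fell and 1 rose in cerebrum. The 10 members that fell in both regions were Efna2, Efnb2, Ephb1, Plxna1, Plxna3, Plxnc1, Sema3c, Sema4b, Sema4c and Sema6a. Plxnb3, Sema6d and Sema7a rose in both, and 13 members passed in neither. Of the 3 other probe sets of Sema6d, 1 changed the opposite way in each region without passing (-0.34 in cerebellum and -0.19 in cerebrum). The same held for 1 of the 5 other probe sets of Plxnc1 (0.18 and 0.03).

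The cerebrum result leaned on its newborn pools and on the scaling. Without either newborn cerebrum pool, 15 or 13 members passed in place of 25. With arrays centred on their median in place of quantile normalization, the median change of all genes in cerebrum moved by -0.167 to -0.205, and 6 members were called higher and 21 lower. Relative to the median of all genes, the members' median was -0.36 under quantile normalization and -0.35 under centring. In cerebellum centring gave 3 higher and 22 lower. Sema6d lost its call in both regions, at a change in cerebrum of -0.01, and Sema7a (0.53, adjusted p = 0.112) and Efna5 (0.19) lost theirs in cerebrum.

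**Figure D1:**
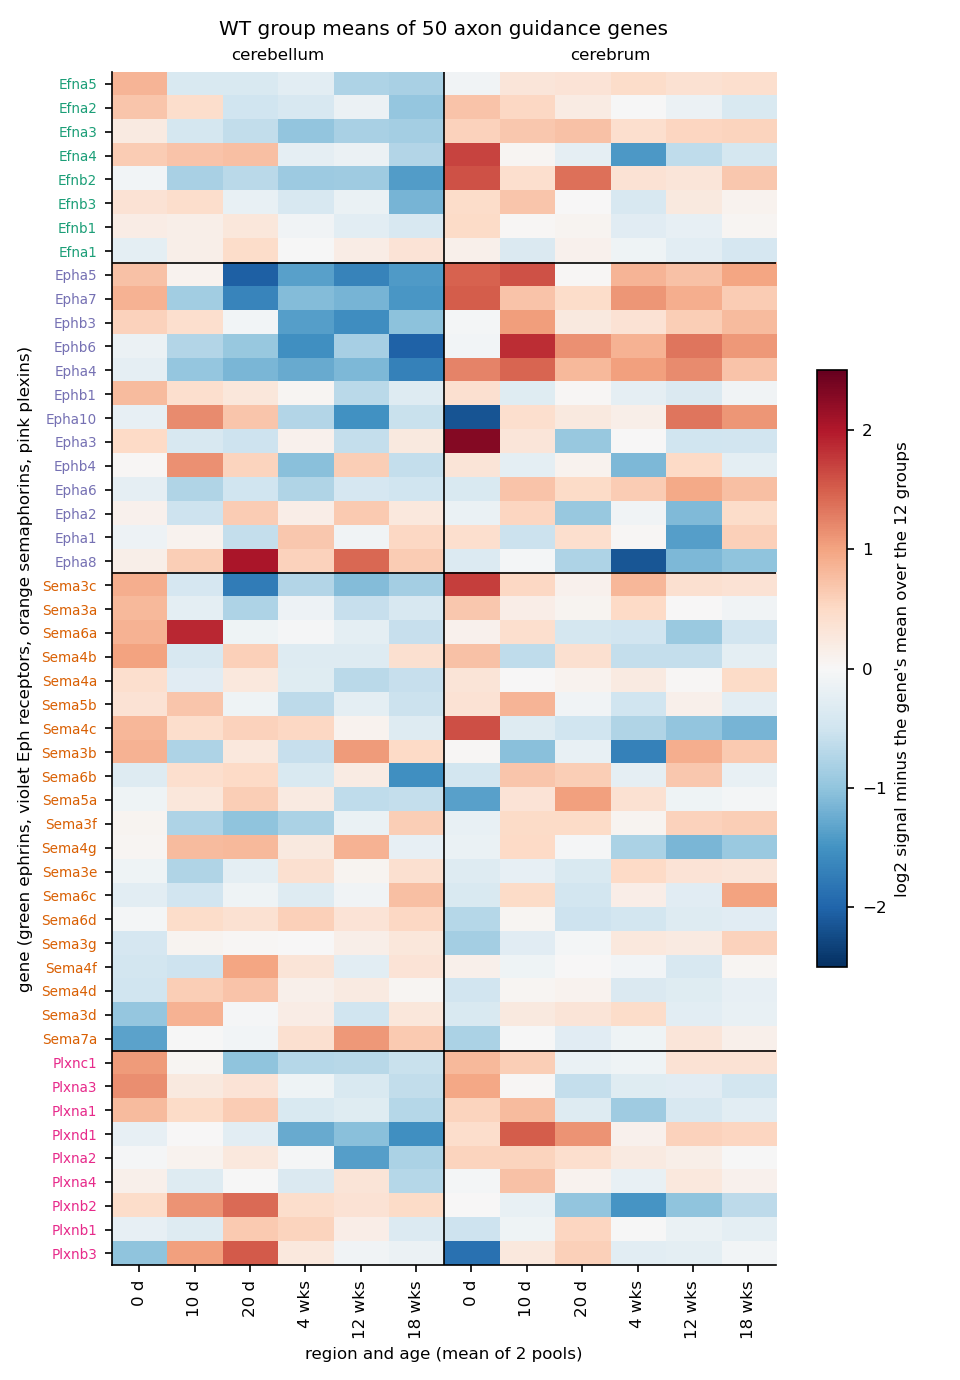
Levels of the 50 protein-coding members in WT brain at each age, as log2 signal (mean of 2 pools) minus the gene's mean over the 12 region and age groups, with genes grouped by family; the ages are evenly spaced categories. Plxna1 and Plxna3 are high in the newborn columns of both regions, and Sema7a and Plxnb3 are low there.

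Of the ligands for Eph receptors, Efna5, a lipid-anchored ephrin known from the ordering of retinal and cortical projections, moved in opposite directions in the 2 regions. In cerebellum its signal was 2662 and 3795 in the newborn pools and 946, 1101 and 1650 (lowest, median and highest) in the mature pools, and its log2 signal fell by 1.46 ± 0.18 (± SE, as throughout; adjusted p = 1.6e-06). In cerebrum the newborn pools were at 1682 and 1596 and the mature pools at 2222, 2335 and 2456, a log2 change of 0.50 ± 0.18 (adjusted p = 0.044). The newborn and mature pools did not overlap in either region. Its other probe set changed by -0.31 in cerebellum and -1.19 in cerebrum, neither passing, so the rise in cerebrum is that of 1 probe set.

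Efnb2, a membrane-spanning ephrin that also acts in blood vessel formation, fell in both regions. The cerebrum signals were 8415 and 11034 at birth and 3753, 3921 and 5203 at maturity, and the change was -1.15 ± 0.20 (adjusted p = 0.00015). In cerebellum it went from 3372 and 2507 to 986, 1508 and 1917, a change of -0.99 ± 0.20 (adjusted p = 0.00072). No mature pool reached a newborn pool of the same region. Its course in cerebrum was not a steady decline, with a step of -1.18 from 0 to 10 days followed by a step of 0.96 from 10 to 20 days, when the pools read 8413 and 7329. Centring left that second step at 0.49 (adjusted p = 0.248).

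Efna2 fell by 1.20 ± 0.20 in cerebellum (adjusted p = 8.5e-05) and by 0.89 ± 0.20 in cerebrum (adjusted p = 0.0018). Efna3 fell in cerebellum, from 2235 and 2339 to a mature range of 882 to 1309, a change of -1.11 ± 0.19 (adjusted p = 0.00016), whereas its change in cerebrum was -0.07. Efna4 had the widest fall among the ephrins of cerebrum, from 719 and 981 to 37.6, 212 and 251, a change of -2.52 ± 0.43 (adjusted p = 0.00014), with mature signals below the median of any array.

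Among the Eph receptors, Epha7, a receptor for ephrin-A ligands, fell in cerebellum from 2078 and 2054 in newborn pools to 381, 519 and 597 in mature pools. The change was -2.09 ± 0.23 (adjusted p = 4.4e-07), and most of it lay in the step from 0 to 10 days, at -1.72 ± 0.28. Epha5, another receptor for ephrin-A ligands, read 2955 and 950 in newborn cerebellum and 247, 370 and 536 at maturity, a change of -2.21 ± 0.41 (adjusted p = 0.00032). The step from 10 to 20 days was -2.13 ± 0.50 (adjusted p = 0.0087), but the 10-day pools read 535 and 2173, the first of them already at the mature level. Its newborn pools differed by over 3-fold from each other but did not overlap the mature pools.

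Ephb1 fell in cerebellum by 1.09 ± 0.17 (adjusted p = 5.1e-05), from 5488 and 7759 to a mature range of 2271 to 4086, and it fell in cerebrum too. Epha4, a receptor for both ephrin classes that keeps spinal axons from crossing the midline, fell in cerebellum by 1.13 ± 0.22 (adjusted p = 0.00046), from 2663 and 1625 to a mature range of 773 to 1155. Epha3, an ephrin-A receptor, had the largest fall among the receptors of cerebrum, from 4750 and 3338 to 516, 651 and 957, a change of -2.62 ± 0.33 (adjusted p = 3.4e-06) with a step of -1.99 ± 0.40 by 10 days. These 3 receptors had no overlap between newborn and mature pools in the regions named.

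Receptors that rose in cerebrum were Epha10, Epha6 and Ephb6. Epha10, whose kinase domain is held to be inactive, read 48.8 and 69.8 at birth and 378, 767 and 1134 at maturity, a change of 3.03 ± 0.63 (adjusted p = 0.00099), so its newborn signals lay below the median of any array. Epha6 rose by 1.16 ± 0.30 (adjusted p = 0.0068). Ephb6, also without kinase activity, rose by 1.18 ± 0.31 (adjusted p = 0.0079), from 860 and 1410 to 1839, 2502 and 3633, after 4396 and 4347 at 10 days. Without the newborn pool numbered 1 its change was 0.82 (adjusted p = 0.22). In cerebellum Ephb6 fell by 1.31 ± 0.31 (adjusted p = 0.0034), although its newborn pools of 759 and 1461 overlapped the mature range of 288 to 770.

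Of the semaphorins, Sema7a, a lipid-anchored semaphorin that promotes axon growth through integrins and also binds plexin C1, rose in both regions. Its cerebellar signal was 2452 and 3548 at birth and 9153, 11602 and 16927 at maturity, a change of 2.05 ± 0.21 (adjusted p = 1.6e-07) with no overlap. In cerebrum it went from 3868 and 5075 to 6275, 7875 and 10408, a change of 0.89 ± 0.21 (adjusted p = 0.0027). Its other probe set rose by 2.65 in cerebellum and changed by -0.29 in cerebrum, and the mean of both probe sets in cerebrum was 0.30 (adjusted p = 0.68). Sema4c, a transmembrane ligand of plexin B2, had the smallest p of all members in cerebrum, falling from 3482 and 4481 to 584, 629 and 815, a change of -2.58 ± 0.19 (adjusted p = 1.7e-09). The step from 0 to 10 days was -1.94 ± 0.23. In cerebellum Sema4c went from 2507 and 1997 to a mature range of 1013 to 1907, and in both regions newborn and mature pools did not overlap.

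Sema6a, a transmembrane semaphorin that acts in granule cell migration with plexin A2, peaked in cerebellum at 10 days. Its pools there read 3441 and 3046 at birth, 6800 and 6407 at 10 days, 1977 and 1405 at 20 days, and 1175, 1549 and 1948 at maturity. The step to 10 days was 1.02 ± 0.23 (adjusted p = 0.0079), the step to 20 days -2.00 ± 0.23 (adjusted p = 1.9e-05), and the change from birth to maturity -1.14 ± 0.19 (adjusted p = 9e-05). The 10-day pools were higher than every other WT cerebellar pool.

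The secreted semaphorins Sema3a and Sema3c, which signal through neuropilins, both fell in cerebellum. Sema3c went from 3573 and 2084 to 662, 739 and 1114, a change of -1.79 ± 0.33 (adjusted p = 0.00024), and Sema3a from 3343 and 1831 to 963, 1107 and 1455, a change of -1.18 ± 0.22 (adjusted p = 0.00025). Neither had an overlap of newborn with mature pools. Sema5a, a transmembrane semaphorin with thrombospondin repeats, rose in cerebrum from 1742 and 1293 to 3362, 4007 and 5340, a change of 1.43 ± 0.23 (adjusted p = 5.7e-05), with no overlap. Sema3g rose in cerebrum by 1.20 ± 0.27 (adjusted p = 0.0019). In cerebellum Sema3d, Sema4d and Sema4f rose and passed, while Sema3d's other probe set changed by -0.58 and did not pass.

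Among the plexins, Plxnc1 (plexin C1) fell in cerebellum from 7424 and 5060 to 1675, 1966 and 2124, a change of -1.72 ± 0.18 (adjusted p = 2.4e-07). Plxna1 and Plxna3, which transmit signals of class 3 semaphorins together with neuropilins, fell in both regions. Plxna3 went from 2480 and 3863 to a mature range of 829 to 1361 in cerebellum (-1.52 ± 0.20, adjusted p = 5.8e-06) and from 2422 and 3080 to a range of 885 to 1231 in cerebrum (-1.31 ± 0.20, adjusted p = 4.1e-05). These newborn and mature pools did not overlap. Plxna1 fell by 1.26 ± 0.23 in cerebellum (adjusted p = 0.00024) and by 1.08 ± 0.23 in cerebrum (adjusted p = 0.0012), also with no overlap.

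Plxnb2 (plexin B2), which acts in cerebellar granule cell precursors, fell in cerebrum by 1.04 ± 0.22 (adjusted p = 0.0011), from 3983 and 5631 to 1491, 2245 and 3853. Plxnd1, the plexin that binds Sema3e, fell in cerebellum by 1.06 ± 0.26 (adjusted p = 0.0036), but without the newborn pool numbered 2 its change was -0.54 (adjusted p = 0.23). Plxnb3 (plexin B3), known from oligodendrocytes, rose in both regions, and no other plexin that passed was higher at maturity. In cerebrum it rose from 660 and 644 to 1895, 2156 and 2945, a change of 1.68 ± 0.29 (adjusted p = 0.00014). In cerebellum it rose by 1.03 ± 0.29 (adjusted p = 0.011), but the newborn pools, 743 and 2123, overlapped the mature range of 2119 to 4015. It was highest at 20 days in both regions, with pools of 7085 and 7505 in cerebellum and 4146 and 3526 in cerebrum.

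Markers of several cell types moved over the same ages. Of 11 measured oligodendrocyte markers 10 rose in cerebellum and 11 in cerebrum, with a summed signal from 28941 to 344361 over WT cerebellar pools and from 12118 to 398751 over WT cerebral pools. Of 7 immature neuron markers 6 fell in each region, with median changes of -3.70 and -2.86, and of 7 measured markers of proliferating cells 6 fell in each. Of 8 markers of meninges and fibroblasts 6 fell in cerebellum and 4 in cerebrum. The log2 ratio of 3′ to 5′ probe sets for actin, a sign of RNA integrity, moved with age too, without overlap: it was 0.29 and 0.30 in newborn cerebellum and 0.42 to 0.59 in mature cerebellum, and 0.21 and 0.29 in newborn cerebrum and 0.57 to 0.86 in mature cerebrum. Their part in the changes of the members was not tested.

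**Figure D2:**
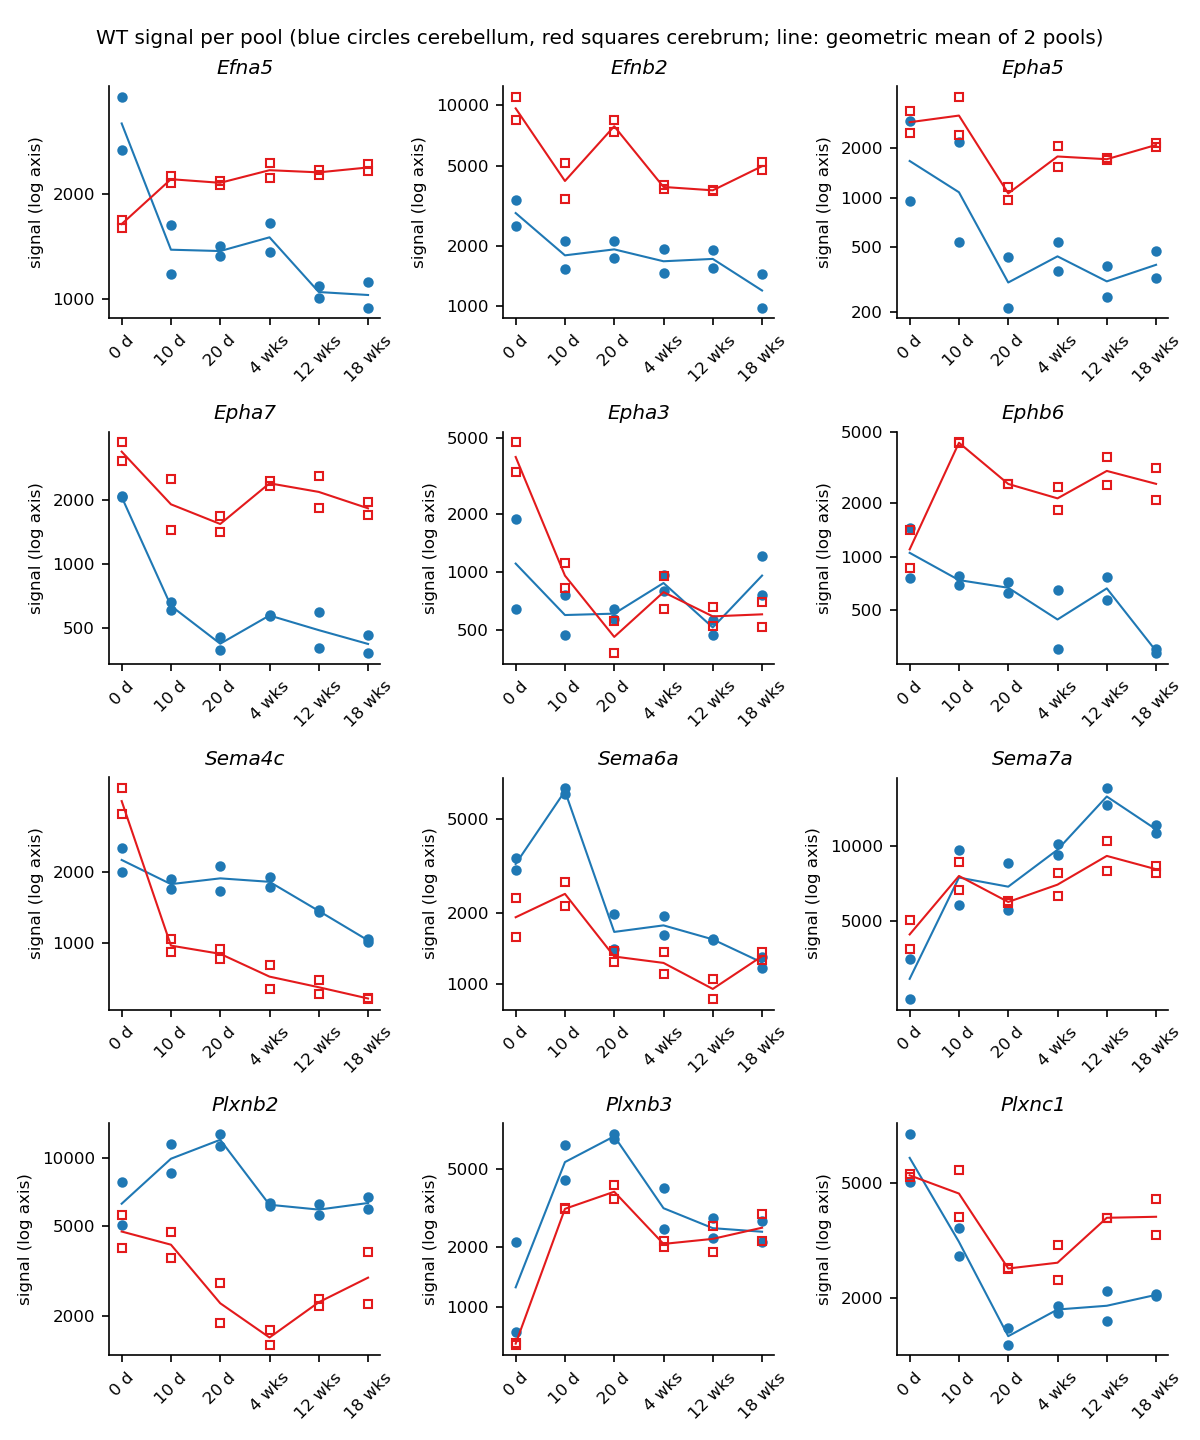
Deposited signal (log axis) of 12 members in each WT pool against age, with ages as evenly spaced categories, cerebellum and cerebrum in different colours and lines joining the means of 2 pools. Efna5 crosses between the regions, Sema6a peaks in cerebellum at 10 days, and Plxnb3 is highest at 20 days.

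Age-by-age steps showed when the members moved. Over the 6 WT ages 34 members differed in cerebellum and 22 in cerebrum, against 36.7% and 30.6% of all genes. Of the 34, 17 were highest at birth, 5 at 10 days, 9 at 20 days, 1 at 4 weeks and 2 at 12 weeks. Of the 22 in cerebrum, 9 were highest at birth, 7 at 10 days, 2 at 20 days, 3 at 12 weeks and 1 at 18 weeks. Between 0 and 10 days 12 members passed in cerebellum and 12 in cerebrum, 6 rising and 6 falling in each (10.5% and 15.2% of all genes passed). Between 10 and 20 days 8 passed in cerebellum, 3 rising and 5 falling, and 5 in cerebrum, 1 rising and 4 falling (14.1% and 4.32%). Between 20 days and 4 weeks 0 passed in either region by limma's test (0.385% and 0.044% of all genes), while 12 in each had an unadjusted p below 0.05.

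With centred arrays the step from 10 to 20 days gave 1 rising and 6 falling in cerebellum and 0 rising and 12 falling in cerebrum, beside a move of the all-gene median by -0.199 and -0.277. The step from 0 to 10 days then gave 5 rising and 3 falling in cerebellum. The genes named for single steps were chosen after their values were seen. Among them Plxnb3 rose by 2.05 ± 0.35 in cerebellum (adjusted p = 0.0008) and 2.13 ± 0.35 in cerebrum (adjusted p = 0.00033) from 0 to 10 days, and Ephb6 rose by 1.92 ± 0.38 in cerebrum (adjusted p = 0.0019).

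A test of the difference asked which members matured differently in the 2 regions. It passed for 13 of the 51 members (8.18% of all genes, 3.22% more positive and 4.96% more negative in cerebellum), with a median difference, cerebellum minus cerebrum, of -0.31 against -0.01 over all genes. The change was more negative in cerebellum for 9: Efna5 (-1.96 ± 0.25, adjusted p = 3e-05), Efna3 (-1.04), Ephb6 (-2.48 ± 0.44, adjusted p = 0.0012), Ephb3 (-2.53), Epha7 (-1.46), Epha10 (-3.76), Epha6 (-1.49), Sema5a (-1.65) and Plxnc1 (-1.12). It was more positive in cerebellum for 4: Sema4c (1.83 ± 0.27, adjusted p = 0.00015), Epha3 (2.04), Epha8 (1.80) and Sema7a (1.16). Epha10, Epha8 and Epha6 were outside the rule for named genes and are given because they complete the list. Ephb3, a receptor for ephrin-B ligands, fell in cerebellum by 1.90 ± 0.38 (adjusted p = 0.00067), while its cerebral pools went from 681 and 963 to 1054, 1221 and 2059.

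This split depended on scaling, since centred arrays gave 7 more positive and 5 more negative members, with an all-gene median moved by 0.187. Epha6, Epha7, Efna3 and Plxnc1 then lost their calls, at -1.46, -1.08, -0.65 and -0.72. Relative to all genes the members' median was -0.30 and, with centring, -0.25. Without either newborn cerebrum pool 7 members passed. The mean of its probe sets gave Efna5 a difference of -0.54 (adjusted p = 0.63), and without the newborn cerebellar pool numbered 2 Epha3 had 1.29 (adjusted p = 0.11).

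**Figure D3:**
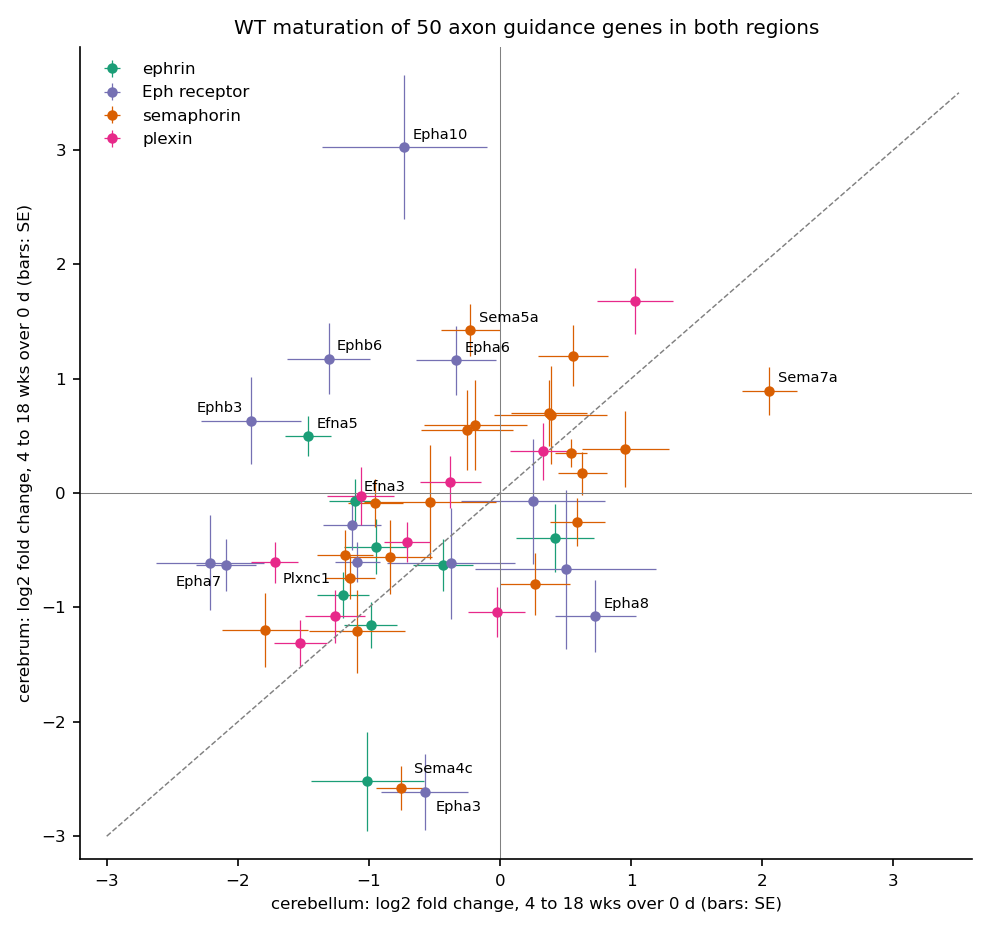
Log2 change from birth to maturity in WT cerebellum (x axis) and WT cerebrum (y axis) for the 50 protein-coding members, coloured by family, with names beside the 13 genes whose change differed between regions. Efna5 and Ephb6 lie where cerebellum is negative and cerebrum positive, and Sema4c and Epha3 lie far below the diagonal.

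Levels in the 2 regions of WT brain were then compared over all 6 ages, 12 pools against 12, taken as unpaired. Of the 51 members 26 differed, 8 higher and 18 lower in cerebellum, against 30.8% of all genes, 15% higher and 15.7% lower. The median difference, cerebellum minus cerebrum, was -0.08 over the members and 0.00 over all genes when rounded to 2 decimals. Among ephrins 5 of 8 were lower in cerebellum and 0 higher, and among Eph receptors 6 of 13 were lower and 1 higher. Among plexins 3 were lower and 2 higher of 9, and among semaphorins 4 lower and 5 higher of 20. Centred arrays gave the same counts in each family.

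Epha4, Efnb2 and Efna3 were the 3 members whose 12 cerebellar and 12 cerebral pools, taken over all ages, did not overlap. Epha4 read 773, 1114 and 2663 (lowest, median and highest) in cerebellum and 3860, 5061 and 8656 in cerebrum, a difference of -2.14 ± 0.11 (adjusted p = 2.5e-12). Efnb2 read 986, 1823 and 3372 against 3402, 4964 and 11034, a difference of -1.58 ± 0.10 (adjusted p = 6.9e-11). Efna3 read 882, 1300 and 2339 against 2350, 2925 and 3654, a difference of -1.16 ± 0.10 (adjusted p = 5.8e-09).

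Epha7 was lower in cerebellum by -1.78 ± 0.11 on the log2 scale (adjusted p = 9.2e-11), Ephb6 by -2.07 ± 0.16 (adjusted p = 1.3e-09) and Epha5 by -1.89. The exception among the receptors was Epha8, which read 631, 1456 and 4343 in cerebellum and 187, 534 and 974 in cerebrum, a difference of 1.82 ± 0.16 (adjusted p = 9.4e-09). Its ranges overlapped over all ages but not among the mature pools. Efna5 was lower in cerebellum over all ages by -0.59 ± 0.09 (adjusted p = 2.3e-05), but at birth it was 0.93 ± 0.22 higher there (adjusted p = 0.033; 0.71 and adjusted p = 0.148 with centred arrays).

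Plxnb2 was the plexin with the largest excess in cerebellum, at 5039, 6531 and 12840 against 1491, 2591 and 5631, a difference of 1.42 ± 0.11 (adjusted p = 1.5e-09). Plxnd1 ran the other way, at 484, 855 and 1882 in cerebellum and 1543, 2435 and 4734 in cerebrum, a difference of -1.43 ± 0.13 (adjusted p = 1.8e-08). For both, the mature pools of the regions did not overlap. Plxna2 (-0.63 ± 0.09, adjusted p = 1e-05) and Plxnc1 (-0.62 ± 0.09, adjusted p = 1.6e-05) were lower in cerebellum by less.

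Sema6d, a transmembrane semaphorin that binds plexin A1, was higher in cerebellum, at 11654, 15861 and 18911 against 7367, 9208 and 13579, a difference of 0.75 ± 0.06 (adjusted p = 5.3e-09). Sema4c (0.71 ± 0.10, adjusted p = 6.5e-06) and Sema6a (0.60 ± 0.09, adjusted p = 5e-05) were also higher there. Sema3c was lower, at 358, 739 and 3573 against 1354, 2142 and 5747, a difference of -1.31 ± 0.16 (adjusted p = 2.2e-06). Sema3f was called lower in cerebellum, but another of its probe sets passed in the opposite direction.

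In newborns alone, with 2 pools against 2, 6 members differed between regions, 3 higher and 3 lower in cerebellum (1.68% of all genes). They were Efnb2 (-1.67), Epha4 (-1.48), Epha3 (-1.80), Sema5a (1.24), Efna5 (0.93) and Sema6d (0.65). With centred arrays 0 were called higher and 4 lower, the all-gene median having moved by -0.169. In the mature pools 24 differed, 7 higher and 17 lower (24.9% of all genes).

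WT pools of 4 and 18 weeks were also compared, 2 against 2 in each region, so few calls do not mean that few members changed. In cerebellum 0 of 51 passed limma's test, with 11 at an unadjusted p below 0.05, against 0.275% of all genes that passed. In cerebrum 1 passed, Sema3b (2.11% of all genes), a secreted class 3 semaphorin. Its pools read 36.0 and 51.6 at 4 weeks and 351 and 214 at 18 weeks, a change of 2.34 ± 0.61 (adjusted p = 0.043), with all 4 signals below or near the array medians. The count was 0 with centred arrays and in 14 of the 24 fits that left out 1 pool.

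The mutant comparisons asked whether loss of prosaposin, alone or with the enzyme mutation, altered the members at the ages sampled. At single ages 0 members passed in either region of PS-/- at 0 and 10 days or of PS-NA at 0 days and 18 weeks. The same held for 4L/PS-NA at 18 weeks. It held for cerebrum alone in PS-/- at 20 days and in PS-NA and 4L/PS-NA at 12 weeks. It held for cerebellum alone in PS-/- at 25 days. Each was a test of 2 pools against 2, so 0 calls do not mean that no member changed. For single ages the share of all genes is given only where members passed, and there it was 0.121% to 2.08%. The 0 counts have no share beside them and cannot be read as a result about the members. In PS-/- over 4 ages 1 member passed in cerebellum and 1 in cerebrum, against 0.759% and 1.52% of all genes, and the change differed between regions for 0 members (0% of all genes; 1 member had an unadjusted p below 0.05). The unadjusted p was below 0.05 for 9 members in cerebellum and 5 in cerebrum. The members' median change was -0.01 in cerebellum and 0.02 in cerebrum, against 0.03 and -0.02 over all genes.

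The member that passed in PS-/- cerebrum was Plxnb3, lower by -0.80 ± 0.19 on the log2 scale (adjusted p = 0.025), a call that 9 of 32 fits without 1 pool lost. At 0, 10, 20 and 25 days its PS-/- pools read 414 and 460, 1689 and 1617, 2581 and 1223, and 1185 and 1720. The WT pools read 660 and 644, 3158 and 3109, 4146 and 3526, and 2004 and 2164 at 0, 10 and 20 days and 4 weeks. At each of these ages both PS-/- pools lay below both WT pools.

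In cerebellum Plxnb3 differed by -0.77 ± 0.19 (adjusted p = 0.058). Its largest gap there was at 20 days, with 2032 and 3288 in PS-/- against 7085 and 7505 in WT, a difference of -1.54 ± 0.38 (adjusted p = 0.0497; 1.12% of all genes passed). With centred arrays that difference was -1.15 (adjusted p = 0.119), or -1.42 relative to the median of all genes, which centring had moved by 0.21. The cerebral call had an adjusted p of 0.0566 with centred arrays.

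Oligodendrocyte markers fell in PS-/- as well, 5 of 11 in cerebellum and 8 of 11 in cerebrum with median changes of -0.74 and -0.75. Their summed signal at 20 days was 199045 and 220055 in PS-/- cerebellum against 322558 and 344361 in WT, and 261504 and 168062 against 360506 and 398751 in cerebrum. Their part in the fall of Plxnb3 was not tested.

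Sema5a was the member that passed in PS-/- cerebellum, lower by -0.67 ± 0.15 (adjusted p = 0.028), a call that 8 of 32 fits without 1 pool lost. The PS-/- pools at 0, 10, 20 and 25 days were 3045 and 2287, 3738 and 2860, 3366 and 3005, and 2685 and 2878, while WT pools of the matched ages were 2688 and 4842, 3944 and 5858, 7660 and 4460, and 4287 and 4892. PS-/- lay below WT at every age but birth, where the pools overlapped. At least 1 other probe set of Sema5a changed in the opposite direction, without passing. With centred arrays the difference was -0.44 (adjusted p = 0.077), or -0.61 relative to the median of all genes, against -0.70 under quantile normalization.

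At 25 days Plxnb2 was higher in PS-/- cerebrum, at 3237 and 4685 against 1728 and 1491 in 4-week WT, a difference of 1.22 ± 0.26 (adjusted p = 0.016; 1.06% of all genes passed). Against WT of 20 days the difference was 0.74 (adjusted p = 0.22), and without the second 25-day pool it was 0.95 (adjusted p = 0.31). Of 12 microglia markers 9 rose in PS-/- cerebellum and 6 in cerebrum. Their summed signal reached 167417 in PS-/- cerebrum against 69180 in WT cerebrum of all 6 ages. Their part was not tested.

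In PS-NA over 4 ages 0 members passed in either region by limma's test, with 8 at an unadjusted p below 0.05 in cerebellum and 3 in cerebrum, against 0.918% and 0.346% of all genes passing. The members' median change was -0.04 in cerebellum and 0.05 in cerebrum, against 0.03 and 0.02 over all genes. The difference between regions passed for 0 members (0.033% of all genes; 3 at an unadjusted p below 0.05). The smallest p-values belonged to Efnb2, with a difference of 0.50 ± 0.13 in cerebellum (adjusted p = 0.093) and 0.54 ± 0.13 in cerebrum (adjusted p = 0.10), and to Plxnb2 in cerebrum, at 0.54 ± 0.14 (adjusted p = 0.14).

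Plxna2, a receptor of Sema6a in granule cells, passed in PS-NA cerebellum at 2 single ages with opposite signs. At 4 weeks it read 2302 and 2495 against 4823 and 4905 in WT, a difference of -1.01 ± 0.19 (adjusted p = 0.015; 0.418% of all genes passed). At 12 weeks it read 3227 and 4307 against 2346 and 1606, a difference of 0.96 ± 0.19 (adjusted p = 0.024; 0.286%), which was 0.71 to 0.72 with adjusted p of 0.33 to 0.36 in the fits without 1 of these pools that lost the call. With centred arrays neither passed, at -0.73 and 0.78, beside moves of the all-gene median by 0.214 and -0.128. The WT signal itself fell from 4 to 12 weeks, and the 4-week PS-NA pools lay near the 12-week WT pools.

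Sema3b was higher in PS-NA cerebrum at 4 weeks, at 332 and 402 against 36.0 and 51.6 in WT, a difference of 2.94 ± 0.61 (adjusted p = 0.013; 1.09% of all genes passed). The WT cerebral pools of 12 weeks (462 and 218) and 18 weeks (351 and 214) lay in the range of these mutant pools, so the gap is against the 4-week WT pools.

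In 4L/PS-NA cerebellum, over 3 ages, 5 members passed, all higher than in WT: Sema3b, Sema3d, Ephb1, Sema3c and Sema4f (5.19% of all genes passed, 4.14% higher and 1.05% lower). The members' median change was -0.05 against 0.06 over all genes, and 15 members had an unadjusted p below 0.05. In cerebrum 1 passed (1.28% of all genes), and the change differed between regions for 0 (0.011%), with 11 at an unadjusted p below 0.05. These shares belong to the fit with all arrays, and the counts that follow, without 1 array, have no such share beside them. Without the array that stood apart, 9 passed in cerebellum, 7 higher and 2 lower: Sema3b, Sema3c, Sema3d, Ephb1, Ephb6, Plxnb3 and Sema4a were higher, and Sema7a and Sema4g lower, while Sema4f lost its call (0.45, adjusted p = 0.0588). Without the other pool of the same group 20 passed, 11 higher and 9 lower. Only Sema3b was left when 1 pool was dropped from 4L/PS-NA at 12 weeks (either pool) or 18 weeks (pool 1), or from WT at 4 weeks (pool 2) or 18 weeks (pool 1).

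Sema3b had the largest difference in 4L/PS-NA cerebellum. Its pools at 4, 12 and 18 weeks read 457 and 1232, 744 and 910, and 566 and 568, against 91.6 and 143, 303 and 344, and 289 and 179 in WT. All 6 mutant pools lay above all 6 WT pools, and the difference was 1.78 ± 0.28 (adjusted p = 0.0011), or 1.53 without the array that stood apart. It passed under each alternative tried, from 1.42 to 1.87, and without each pool in turn, from 1.53 to 2.03. Its other 2 probe sets differed by 1.16 and 1.31, neither passing. At 4 weeks alone the difference was 2.82 ± 0.49 (adjusted p = 0.017; 0.352% of all genes passed), and 2.08 (adjusted p = 0.142) without the array that stood apart.

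Sema3d and Sema3c, also secreted class 3 semaphorins, were higher in 4L/PS-NA cerebellum by 1.16 ± 0.27 (adjusted p = 0.021) and 0.65 ± 0.16 (adjusted p = 0.029). Without the array that stood apart the differences were 0.96 (adjusted p = 0.038) and 0.56 (adjusted p = 0.042). Sema3d read 358 and 858, 998 and 931, and 1072 and 1088 at 4, 12 and 18 weeks, against 426 and 480, 292 and 208, and 442 and 461 in WT. Sema3c read 762 and 1087, 1593 and 1888, and 1595 and 1004, against 1114 and 757, 716 and 662, and 721 and 971. For both genes the 4-week pools overlapped those of WT, and the 12- and 18-week pools did not. Each call was lost in 7 of the 24 fits without 1 pool, and the mean of Sema3c's probe sets differed by 0.16.

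Ephb1 was higher by 0.50 ± 0.12 (adjusted p = 0.024; 0.45 and adjusted p = 0.0503 with centred arrays; 0.46 and adjusted p = 0.027 without the array that stood apart), with 4452 and 4806, 4481 and 4480, and 3915 and 3696 against 4086 and 3784, 2271 and 2622, and 3043 and 3159 in WT. Its mutant pools were above WT at each age. Sema4f, a transmembrane semaphorin, differed by 0.56 ± 0.15 (adjusted p = 0.039; 0.53 and adjusted p = 0.0779 with centred arrays), with its largest signal, 10143, on the array that stood apart.

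At 12 weeks alone 5 members passed in 4L/PS-NA cerebellum (2.08% of all genes). Sema3c (1.32 ± 0.28, adjusted p = 0.019), Sema3d (1.95 ± 0.47, adjusted p = 0.037) and Ephb1 (0.86 ± 0.21, adjusted p = 0.037) were higher. Epha8 was lower, at 800 and 828 against 2597 and 2353 in WT (-1.48 ± 0.37, adjusted p = 0.044), and so was Sema4g (-1.31 ± 0.30, adjusted p = 0.031). With centred arrays Epha8 (adjusted p = 0.0583) and Sema4g (adjusted p = 0.0528) did not pass. The log2 actin ratio was higher in both mutant pools of this age than in both WT pools, at 1.01 and 0.93 against 0.42 and 0.59. Its part was not tested. Without the 4-week array that stood apart, which enters this comparison only through the shared estimate of the spread and the adjustment, 8 passed, 5 higher and 3 lower. The 5 above kept their calls, and Sema6d (0.87, adjusted p = 0.0046), Sema3e (0.95, adjusted p = 0.039) and Sema7a (-0.91, adjusted p = 0.0054) were added.

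In 4L/PS-NA cerebrum the member that passed was Plxnb2, at 2668 and 3467, 3867 and 3240, and 4972 and 3318 at 4, 12 and 18 weeks, against 1728 and 1491, 2388 and 2219, and 3853 and 2271 in WT. The difference was 0.66 ± 0.15 (adjusted p = 0.036), and the pools overlapped those of WT only at 18 weeks. The call was lost in 15 of the 24 fits without 1 pool. Sema3b differed by 1.001 ± 0.28 over the 3 ages (adjusted p = 0.11, and 0.035 without the cerebellar array that stood apart, which shares the estimate of the spread). At 4 weeks it was higher, at 307 and 437 against 36.0 and 51.6 in WT, by 2.79 ± 0.49 (adjusted p = 0.025; 0.121% of all genes passed). The mature WT cerebral pools had a median of 216 and reached 462, so the gap is against the 4-week WT pools. These are the WT pools of the PS-NA comparison too.

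Among the markers that moved in 4L/PS-NA cerebellum were those of microglia, with 11 of 12 higher and a median change of 2.36. Their summed signals were 47438 to 141717 against 21527 to 37961 in WT. In cerebrum 7 of 12 rose, with sums of 73996 to 147261 against 22494 to 69180. Astrocyte markers had sums of 223466 to 296307 (median 287892) in 4L/PS-NA cerebellum, against 97224 to 235612 (median 218192) in WT. In cerebrum these were 201699 to 309929 (median 251517) against 62008 to 279005 (median 201066). Of 8 markers of meninges and fibroblasts 2 rose in cerebellum, with sums of 22518 to 39678 against 15266 to 52119 in WT. Of 6 Purkinje cell markers 2 fell (median -1.09). The WT ranges of these sums cover all 6 ages, newborns included, whereas the mutant pools were of 4, 12 and 18 weeks. They are therefore not matched for age. The actin ratio ran from 0.44 to 1.01 in 4L/PS-NA cerebellum and from 0.29 to 0.59 in WT cerebellum of all 6 ages. By age the mutant pools read 0.51 and 0.91 at 4 weeks, 1.01 and 0.93 at 12 weeks, and 0.47 and 0.44 at 18 weeks. WT pools of these ages read 0.56 and 0.55, 0.42 and 0.59, and 0.54 and 0.49. Their part in the members' differences was not tested.

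The study's methods used looser thresholds, an adjusted p of at most 0.2 with a 1.5-fold change at 1 or more ages. On limma's values these called 4 members in PS-/- cerebellum and 3 in cerebrum (3.99% and 6.01% of all probe sets), 1 and 2 in PS-NA (1.91% and 0.595%) and 11 and 2 in 4L/PS-NA (11.3% and 3.67%). Members are counted by 1 probe set a gene, so these shares over all probe sets are not like for like. In PS-/- they were Efnb3, Plxna2, Plxnb3 and Sema5a, all lower, in cerebellum, and Plxnb2, Plxnb3 and Sema7a in cerebrum. In PS-NA they were Efnb2 in cerebellum and Efnb2 and Plxnb2 in cerebrum, all higher. In 4L/PS-NA cerebellum 8 were higher (Ephb1, Ephb6, Plxnd1, Sema3b, Sema3c, Sema3d, Sema4f and Sema6d) and 3 lower (Epha8, Sema4g and Sema7a). Plxnb2 and Sema3b were higher in 4L/PS-NA cerebrum.

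**Figure D4:**
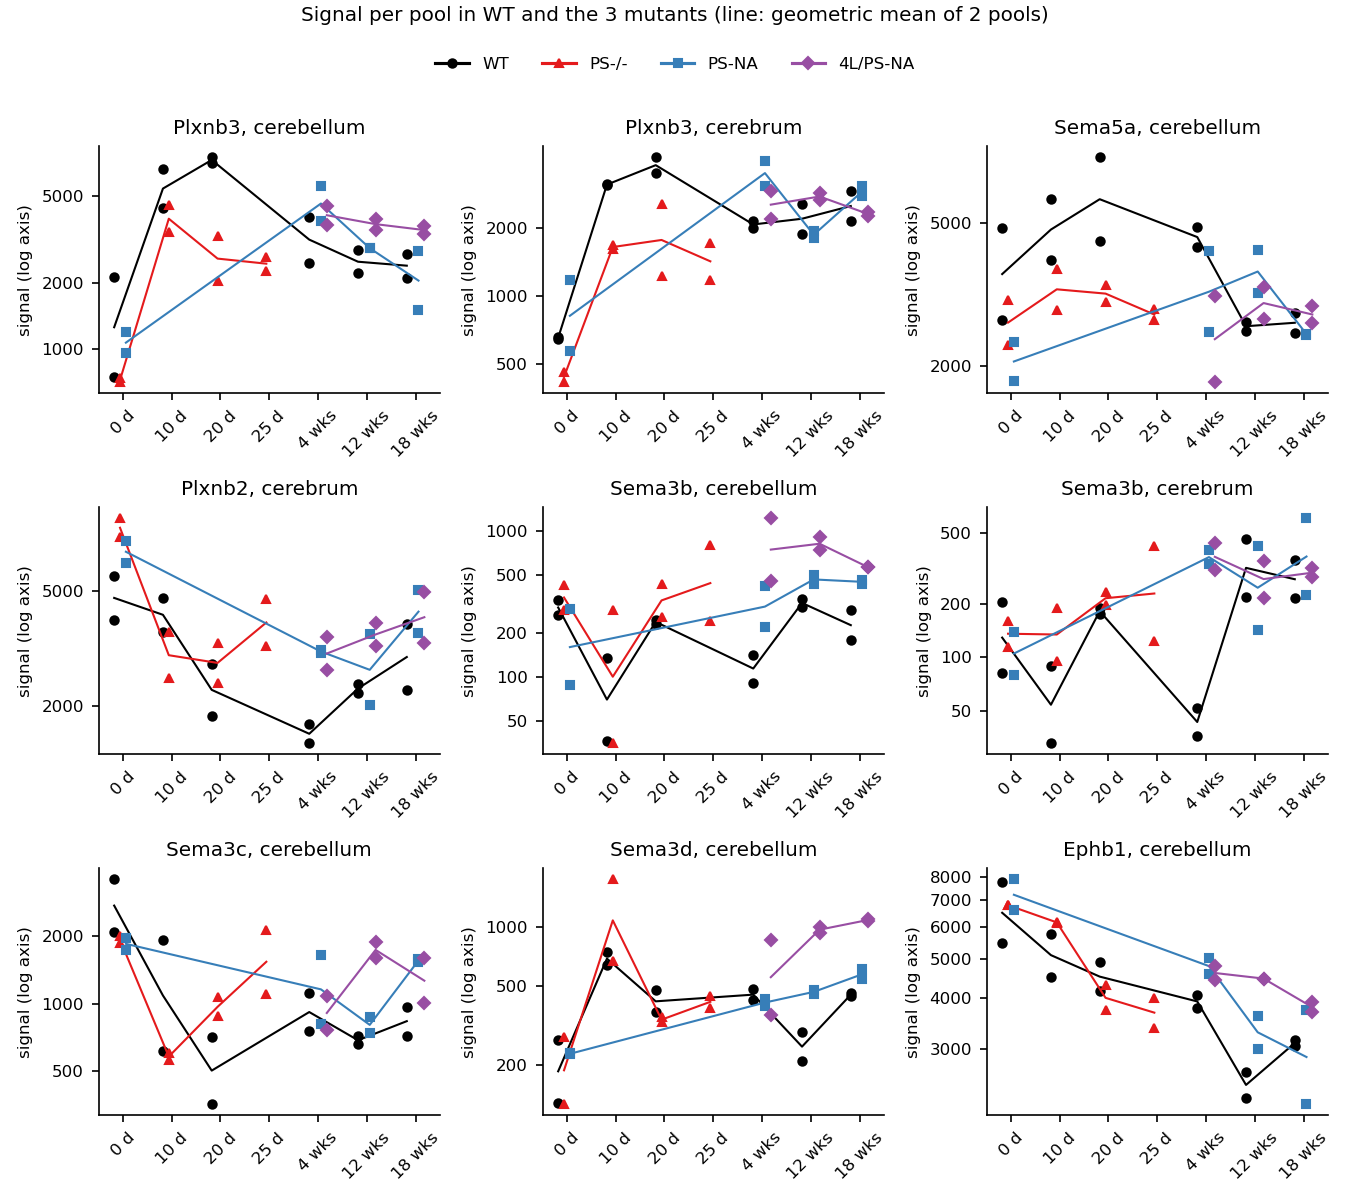
Deposited signal (log axis) of members in WT and mutant pools against age, 1 panel for each gene and region, with ages as evenly spaced categories. Plxnb3 in PS-/- cerebrum lies below WT at each age, and Sema3b in 4L/PS-NA cerebellum lies above all WT pools of 4 to 18 weeks.

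Set directly against PS-NA of the same ages, 4L/PS-NA cerebellum differed in 3 members (3.73% of all genes). Sema6d (0.45 ± 0.12, adjusted p = 0.027) and Sema4d (0.41 ± 0.11, adjusted p = 0.031) were higher. For both genes another probe set differed in the opposite direction, without passing. Ephb4, a receptor for ephrin-B2, was lower, at 73.6 and 344, 227 and 235, and 65.3 and 82.7 against 226 and 238, 306 and 334, and 393 and 340, a difference of -1.13 ± 0.33 (adjusted p = 0.038). All of these signals lay below or near the array medians. Without the 4-week 4L/PS-NA pool numbered 1 the difference was -0.89. Without the array that stood apart Ephb4 alone passed, at -1.37, and with centred arrays Sema4d (0.25) and Sema6d (0.35) did not. In cerebrum 0 passed by limma's test (1.74% of all genes), with 3 at an unadjusted p below 0.05.

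Other genes of the axon guidance pathway were followed as a list of 71 measured genes: neuropilins, netrins and their receptors, slits and robos, the RGM family, myelin inhibitors and their receptors, and intracellular effectors. In WT cerebellum 43 of 71 changed with maturation, 15 rising and 28 falling, and in cerebrum 32 did, 14 rising and 18 falling (31.4% and 30.8% of all genes passed). Nrp1, the co-receptor of Sema3a, fell by 1.47 ± 0.22 in cerebellum (adjusted p = 2.7e-05) and by 1.01 ± 0.22 in cerebrum (adjusted p = 0.0015). The netrin receptor Dcc fell by 4.09 ± 0.36 in cerebellum (adjusted p = 1.7e-08), the slit receptor Robo1 by 2.33 ± 0.23 and the effector Dpysl3, which relays semaphorin signals to microtubules, by 4.24 ± 0.18. The effector Chn2 rose by 4.18 ± 0.16 in cerebellum (adjusted p = 7.3e-14) and the myelin inhibitor Mag by 4.24 ± 0.21 (adjusted p = 2.5e-12). Mag is also one of the oligodendrocyte markers counted above. The regions differed in 40 of the 71 (30.8% of all genes), 15 higher and 25 lower in cerebellum, with 0 of 7 slits and robos higher there and 4 lower.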

How the data were processed

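Per the labels, total RNA of cerebellum and cerebrum was labelled with biotin and hybridised to 68 Affymetrix mouse arrays, 2 pools of 3 mice in each of 34 groups. The deposited values are linear signal intensity per probe set (45101 of them), which the authors computed with GCOS 1.1 and scaled so that each array's mean, trimmed by 2% at either end, was 1500. Array medians ran from 256 to 476, and the number of arrays limits the precision. Probe-level data were not used here, so the RMA summary and the mixed-model ANOVA of the study's methods were not repeated.

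From these, 64 control probe sets were left out, the signals quantile normalized over all arrays and log2(signal + 16) taken, so fold changes of dim genes are understated. Differences were fitted with limma 3.58.1 (statmod 1.5.0, R 4.3.3; lmFit and eBayes with an intensity trend) on 45037 probe sets and adjusted by Benjamini-Hochberg within each comparison, with a call at an adjusted p below 0.05. One model each was fitted for WT (24 arrays, 12 residual degrees of freedom), PS-/- with WT (32 and 16), PS-NA with WT (32 and 16), 4L/PS-NA with WT (24 and 12) and all groups for 4L/PS-NA against PS-NA (68 and 34). Comparisons of different mutants with WT share WT pools. Probe sets were named from the platform annotation: 34945 had 1 gene symbol and 932 several, and the share of all genes that passed refers to 18193 genes by their brightest probe set. It is given for the main fits alone. Counts from refits under the alternatives or without 1 pool have no share beside them and cannot be set against it. The fits were tested on simulated data.

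The members and the lists of pathway and cell type genes were chosen with earlier results of these data known. Genes to be named were drawn by p-value. For WT maturation, region and their difference these were the 4 smallest in each family. For each mutant comparison they were the called members, filled to 4. At a single age, between 4 and 18 weeks or in 4L/PS-NA against PS-NA they were at most 6 called members. Each pathway list gave 2 genes. Not all of the genes so drawn are named, above all in the mutant comparisons and pathway lists, so the naming remains partly a choice. Alternatives were median centring, pseudocounts of 1 and 64, leaving out dim probe sets, no intensity trend, the mean of a gene's probe sets, the pool number as a block, 1 fit over all arrays, other WT ages, the thresholds of the study's methods (a false discovery rate of 0.2 and a 1.5-fold change), and leaving out each pool.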

Additional observations from a re-analysis of the deposited data

Results flagged for a closer look

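The change of 13 members from birth to maturity differed between WT cerebellum and WT cerebrum by limma's test of the difference (8.18% of all genes passed), given here as cerebellum minus cerebrum on the log2 scale. More negative in cerebellum were Epha10 (-3.76 ± 0.89, SE; adjusted p = 0.013), Ephb3 (-2.53 ± 0.54, adjusted p = 0.0057), Ephb6 (-2.48 ± 0.44, adjusted p = 0.0012), Efna5 (-1.96 ± 0.25, adjusted p = 3e-05), Sema5a (-1.65 ± 0.32, adjusted p = 0.0026), Epha6 (-1.49 ± 0.43, adjusted p = 0.043), Epha7 (-1.46 ± 0.32, adjusted p = 0.0078), Plxnc1 (-1.12 ± 0.25, adjusted p = 0.0097) and Efna3 (-1.04 ± 0.27, adjusted p = 0.026). More positive were Epha3 (2.04 ± 0.47, adjusted p = 0.01), Sema4c (1.83 ± 0.27, adjusted p = 0.00015), Epha8 (1.80 ± 0.44, adjusted p = 0.016) and Sema7a (1.16 ± 0.29, adjusted p = 0.02). The calls for Ephb6 and Sema4c held under each alternative and without each pool.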

How the results depend on the processing

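Of 117 gene-level results followed, 82 were called, 47 of these held under each alternative and 39 also in each fit without 1 pool. The total WT counts over 6 ages, between regions and with maturation stayed within 1.5 times under the alternatives other than leaving out a pool, but centring lowered the members that rose in cerebellum from 6 to 3. With arrays centred on the median, 0 members passed between 4 and 18 weeks in cerebrum, 0 in PS-/- cerebellum, 0 in PS-/- cerebrum and 1 in cerebellum of 4L/PS-NA against PS-NA. Without dim probe sets the counts were 0 between 4 and 18 weeks in cerebrum, 3 in PS-/- cerebellum and 2 in PS-/- cerebrum. Without the intensity trend they were 0 between 4 and 18 weeks in cerebrum, 0 in both PS-/- regions, 2 in 4L/PS-NA cerebellum and 0 in 4L/PS-NA cerebrum. With the mean of a gene's probe sets, 0 passed in PS-/- cerebrum and 3 in cerebrum of 4L/PS-NA against PS-NA. One fit over all arrays gave 0 between 4 and 18 weeks in cerebrum, 2 in PS-/- cerebellum and 10 in 4L/PS-NA cerebellum, and WT of 20 days in place of 4 weeks gave 2 in PS-/- cerebellum. The methods' thresholds gave 4 and 3 in PS-/- cerebellum and cerebrum, 1 and 2 in PS-NA, and 11 and 2 in 4L/PS-NA. The mean of its probe sets reversed Efna5 in WT maturation of cerebrum (-0.35, adjusted p = 0.53), Sema7a in PS-/- cerebrum (0.14) and PS-NA cerebellum (0.0089), and Sema4d in cerebellum of 4L/PS-NA against PS-NA (-0.10). Without the newborn WT cerebellar pool numbered 2, the regional difference of Plxnb3 in WT maturation reversed to 0.12, within a range of -1.43 to 0.12 over the fits without 1 pool. The causes were not tested.

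Without each pool in turn the counts ran from 24 to 29 for WT maturation in cerebellum, 13 to 28 in cerebrum and 7 to 14 for their difference, from 0 to 2 between 4 and 18 weeks in cerebrum, 0 to 3 and 0 to 2 in PS-/- cerebellum and cerebrum, 0 to 1 and 0 to 2 in PS-NA, 1 to 20 and 0 to 2 in 4L/PS-NA, 0 to 11 for the regional difference in 4L/PS-NA, and 0 to 17 in cerebellum and 0 to 1 in cerebrum of 4L/PS-NA against PS-NA.

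Pool numbers were shared by the groups. The study's methods fit subject as a random effect, so both regions may come from the same mice. Over all probe sets, deviations of same-numbered cerebellum and cerebrum pools correlated at -0.107 to 0.244, which cannot settle whether they are pairs. The main fits took them as unpaired. With the replicate block, 28 members passed for WT maturation in cerebellum, 23 in cerebrum, 13 for the difference, 26 between regions and 0 between 4 and 18 weeks in cerebrum; a random subject gave 28, 26, 14, 27 and 1, and the mutant counts did not move.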

Other observations

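The other axon guidance genes were also set against WT in the mutants. In 4L/PS-NA cerebellum 6 of the 71 measured pathway genes passed limma's test, 5 higher and 1 lower than in WT (5.19% of all genes passed, 4.14% higher and 1.05% lower), and the same 6 passed without the array that stood apart. The netrin receptor Dcc was higher by 1.52 ± 0.29 on the log2 scale (adjusted p = 0.0056; 1.20 without that array), the Eph-linked exchange factor Ngef by 0.98 ± 0.18 (adjusted p = 0.0038; 0.93), the slit ligand Slit2 by 0.91 ± 0.20 (adjusted p = 0.012; 0.82), the Sema3a co-receptor Nrp1 by 0.64 ± 0.16 (adjusted p = 0.033; 0.60) and Tnfrsf19 by 0.61 ± 0.15 (adjusted p = 0.027; 0.48). Kalrn was lower, at -0.57 ± 0.14 (adjusted p = 0.025; -0.59).

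In PS-/- cerebellum 3 of the 71 passed (0.759% of all genes), all lower: the myelin inhibitor Mag (-0.76 ± 0.15, adjusted p = 0.018), the receptor Tnfrsf19 (-0.50 ± 0.10, adjusted p = 0.015) and the kinase Fyn (-0.45 ± 0.09, adjusted p = 0.02). Mag (-1.005 ± 0.15, adjusted p = 0.00088) and Fyn (-0.39 ± 0.09, adjusted p = 0.025) were also lower in PS-/- cerebrum (1.52% of all genes passed). Mag is also one of the oligodendrocyte markers, so its calls are counted in both lists. In PS-NA 0 of the 71 passed limma's test in either region (0.918% of all genes in cerebellum and 0.346% in cerebrum), with 6 in cerebellum and 7 in cerebrum at an unadjusted p below 0.05, and in 4L/PS-NA cerebrum 0 passed (1.28% of all genes), with 8 at an unadjusted p below 0.05.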
